A study of Mus musculus with 15 samples.

Results

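The genes described here are 8 C-type lectin receptors by which macrophages recognise sugars, glycolipids and dead cells, namely Clec7a, Clec4n, Clec4e, Clec4d, Clec5a, Clec12a, Mrc1 and Cd209a. They are the rows of the count table whose Ensembl identifier carries one of these symbols. All 8 were found among 78317 gene identifiers, and all 8 passed the filter on low counts that left 16654 genes to test.

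The study exposed MH-S cells, an SV40-transformed alveolar macrophage line of the mouse, to rod-shaped microparticles for inhalation and sequenced their RNA. The 15 libraries form 5 groups of 3. M0 cells had medium only, M1 cells LPS at 1 µg/mL plus IFN-γ at 20 ng/mL, and M2 cells 20 ng/mL IL-4. The other groups had microrods of calcium phosphate (CaP) or silica (SiO2) at 0.1 mg/mL, both held together with alginate and coated with protamine and carboxymethyl chitosan. All treatments lasted 24 h. Each microrod well had its own particle batch, but all wells shared 1 passage of 1 cell line, so the p-values measure the spread between wells and batches only.

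C-type lectin receptors bind their ligands through a calcium-dependent sugar-binding fold or a fold derived from it. Clec7a (Dectin-1) carries its own signalling motif, whereas Clec4n (Dectin-2), Clec4e (Mincle), Clec4d and Clec5a couple to the adaptors FcRγ, DAP12 or DAP10, and all of them act through the kinase SYK and the adaptor CARD9. Clec12a carries an inhibitory motif that recruits phosphatases, and Mrc1 (the mannose receptor, CD206) and Cd209a (a mouse relative of DC-SIGN) take up glycoproteins. In the lung these receptors are known for sensing fungi, mycobacteria and damaged cells.

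The sequence before the start of 7 of the 8 genes was taken from RefSeq (GRCm38.p6), Clec4n having no entry. The 250 bases upstream of 5 genes are shown because Clec4d, Clec4e, Clec5a and Clec12a fell together in M2 cells while Mrc1 rose. Capitals mark matches, on either strand, to the letters of PU.1 (GAGGAAG), C/EBP (TTNNGCAA), AP-1 (TGANTCA) or a STAT6-type motif (TTC and GAA 4 bases apart).
Clec4d: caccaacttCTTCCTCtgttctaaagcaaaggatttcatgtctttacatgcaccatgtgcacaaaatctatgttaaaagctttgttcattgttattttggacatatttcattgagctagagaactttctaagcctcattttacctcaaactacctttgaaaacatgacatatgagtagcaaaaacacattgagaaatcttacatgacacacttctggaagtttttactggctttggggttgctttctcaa
Clec4e: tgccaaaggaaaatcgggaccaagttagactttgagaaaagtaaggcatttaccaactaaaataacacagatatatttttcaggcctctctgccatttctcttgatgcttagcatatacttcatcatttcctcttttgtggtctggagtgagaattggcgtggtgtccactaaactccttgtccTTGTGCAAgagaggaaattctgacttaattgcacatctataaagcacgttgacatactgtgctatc
Clec5a: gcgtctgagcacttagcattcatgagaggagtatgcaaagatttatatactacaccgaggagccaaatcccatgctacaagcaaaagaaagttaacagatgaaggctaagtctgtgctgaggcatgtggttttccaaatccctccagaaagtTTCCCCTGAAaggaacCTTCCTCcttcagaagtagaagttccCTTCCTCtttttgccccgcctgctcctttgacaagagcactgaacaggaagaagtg
Clec12a: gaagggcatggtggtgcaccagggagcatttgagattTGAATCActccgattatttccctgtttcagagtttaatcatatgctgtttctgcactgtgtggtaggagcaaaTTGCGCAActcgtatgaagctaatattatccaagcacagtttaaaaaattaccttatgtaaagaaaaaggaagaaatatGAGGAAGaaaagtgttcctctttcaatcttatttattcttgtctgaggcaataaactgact
Mrc1: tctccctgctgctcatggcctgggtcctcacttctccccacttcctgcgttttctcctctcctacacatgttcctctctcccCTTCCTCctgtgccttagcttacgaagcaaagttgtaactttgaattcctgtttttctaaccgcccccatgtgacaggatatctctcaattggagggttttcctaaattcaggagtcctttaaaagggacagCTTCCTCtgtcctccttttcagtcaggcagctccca
The stretches lie at chr6:123261857-123262106 on the plus strand (Clec4d), chr6:123289872-123290121 on the minus strand (Clec4e), chr6:40585806-40586055 on the minus strand (Clec5a), chr6:129349994-129350243 on the plus strand (Clec12a) and chr2:14229164-14229413 on the plus strand (Mrc1). Each is printed in the direction of its gene. The PU.1 letters were present in 4 of the 7 genes, once each in Clec4d and Clec12a and at 2 places each in Clec5a and Mrc1, against 10.6% of 32851 promoter windows of this length. PU.1 is the transcription factor that defines the myeloid lineage. The C/EBP letters were present in 2 of the 7 (Clec4e and Clec12a; 9.56% of all windows), the AP-1 letters in 1 (Clec12a; 6.75%) and the STAT6-type letters in 2 (Clec5a and Clec7a; 5.85%). The letters of an NF-kB motif (7.25%) were in none of the 7. These are matches of letters, not sites of binding.

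Total counts lay between 8459643 and 68750050 per library. M0 replicate 3, M2 replicate 2 and SiO2 replicate 2, each the smallest library of its group, stood apart on the second principal component with scores of 21.7 and above, against 4.36 or below for the other libraries. Results that rest on them are given with and without them. Of the 12 macrophage markers, Mertk and the alveolar genes Siglecf, Ear2 and Chil3 were below 1 CPM (a count scaled by library size) in every library. The other 8 were tested. In M0 they ranged from 0.147 ± 0.165 CPM (Marco) and 2.51 ± 0.48 (Itgax) to 979 ± 107 (Cd68) and 1850 ± 376 (Lyz2). The line thus lacks some markers that define alveolar macrophages in tissue, but not macrophage markers as a whole. All 8 lymphocyte markers and 7 of the 8 epithelial and stromal markers were below 1 CPM throughout, as were 4 of the 6 dendritic cell and 4 of the 6 neutrophil markers. Of the other dendritic cell and neutrophil markers, Cxcr2 was the highest, at 11.1 ± 4.51 CPM in M0 and 9.72 to 48.2 CPM in M1. In bulk RNA, fewer cells that express a gene and less RNA of it per cell cannot be told apart.

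Clec4d was the most abundant of the 8 receptors in every library when compared per kilobase of transcript. Its group mean was 268 ± 12.2 CPM per kilobase in M0 (SD, n = 3), which was 56.1% of the summed level of the 8 genes. Clec5a followed in M0 with 89.8 ± 17.6 CPM per kilobase, then Clec4e with 46.5 ± 9.18 and Clec12a with 40.2 ± 5.36. Clec4e and Clec12a were close in level in M0, with libraries from 40.5 to 57.1 and from 35.4 to 46.0. Cd209a (23.0 ± 3.28), Clec7a (7.41 ± 1.47), Clec4n (4.40 ± 1.34) and Mrc1 (0.345 ± 0.11 CPM per kilobase) were lower. The order of these last genes was not the same in all groups. In M1, Clec4n reached 22.9 ± 2.28 CPM per kilobase and Cd209a 0.912 ± 0.4. In M2, Clec4n was the lowest of the 8 at 1.54 ± 0.243 CPM per kilobase and Mrc1 stood at 5.14 ± 0.497.

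The summed level of the 8 receptors was 479.9 ± 45.6 CPM per kilobase in M0, 703 ± 77.4 in M1 and 241 ± 87.6 in M2. It was 527 ± 69.7 with CaP and 513 ± 8.33 with SiO2 microrods. The M1 libraries (651 to 792) were above and the M2 libraries (184 to 342) below those of M0 (450.4 to 532), while both microrod groups overlapped M0. Clec4d was the largest part of each sum, with a mean share from 45.4% in M2 to 59.0% in M1. M2 replicate 2, which stood apart, had the highest sum of its group.

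**Figure D1:**
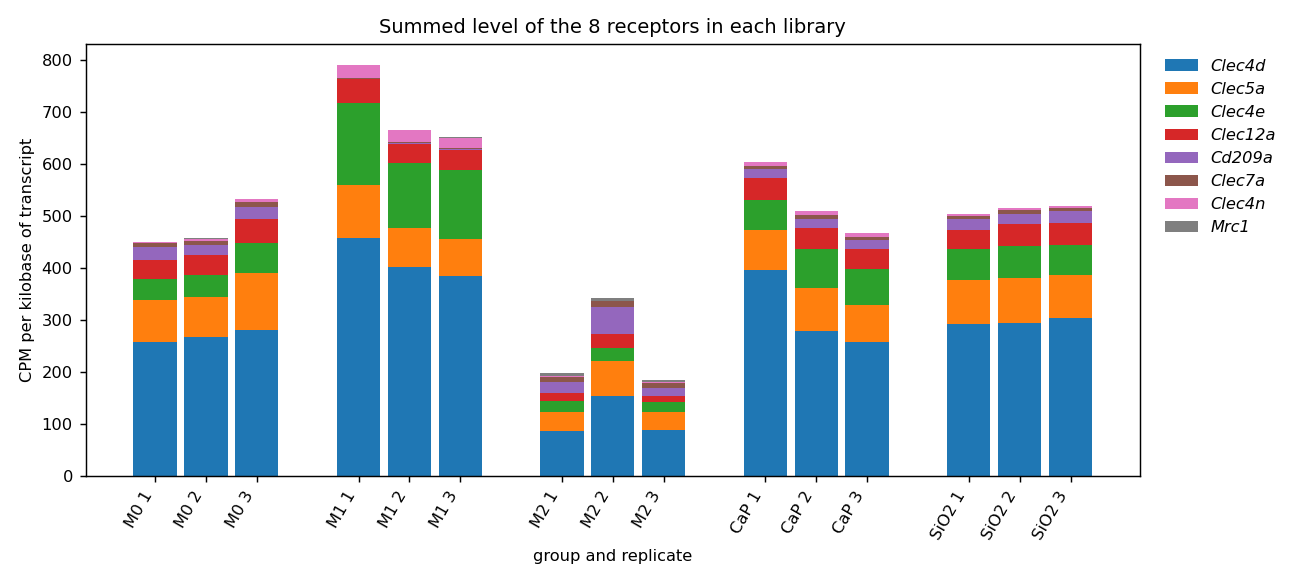
Stacked bars give the level of each of the 8 receptors in CPM per kilobase of transcript in each of the 15 libraries, labelled by group and replicate. The M2 bars (184 to 342) are the lowest and the M1 bars (651 to 792) the highest, and Clec4d makes up the largest share of every bar.

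Calls were made with edgeR's quasi-likelihood test where the Benjamini-Hochberg adjusted p was under 0.05 and the log2 fold change exceeded 0.5 in size. In M1 against M0, 4 of the 8 receptors were called, 2 higher (Clec4n and Clec4e) and 2 lower (Clec7a and Cd209a). Of all genes tested 14.1% were called, 9.7% higher and 4.37% lower. In M2 against M0, 6 of the 8 were called, with Mrc1 higher and Clec4n, Clec4e, Clec4d, Clec5a and Clec12a lower, where 4.13% of all genes were called, 2% higher and 2.13% lower. The median log2 fold change of the 8 was -0.06 in M1 and -1.05 in M2, and that of all genes tested -0.01 and 0.07.

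With CaP microrods 1 of the 8 receptors was called against M0 (Mrc1, lower), where 0.654% of all genes were called. With SiO2 microrods 0 of the 8 were called by edgeR, 1 (Mrc1) had an unadjusted p under 0.05 and DESeq2 called 1 (Mrc1), where edgeR called 0.264% of all genes. Between the microrod types 0 of the 8 were called by edgeR and 0 by DESeq2, 1 (Clec4n) had an unadjusted p under 0.05, and 0.018% of all genes were called. The median log2 fold change of the 8 was -0.09 with CaP and -0.05 with SiO2 microrods, and that of all genes 0.06 and -0.02. The comparisons against M0 share the same M0 libraries, so their values are not independent. The shares of all genes called by DESeq2 or with an unadjusted p under 0.05 were not computed. Such counts, here and below, are not set against all genes.

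In M1 against M2 all 8 receptors were called, 5 higher in M1 (Clec4n, Clec4e, Clec4d, Clec12a and Clec5a) and 3 lower (Mrc1, Clec7a and Cd209a). Of all genes 16.1% were called, 10.6% higher and 5.46% lower in M1.

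**Figure D2:**
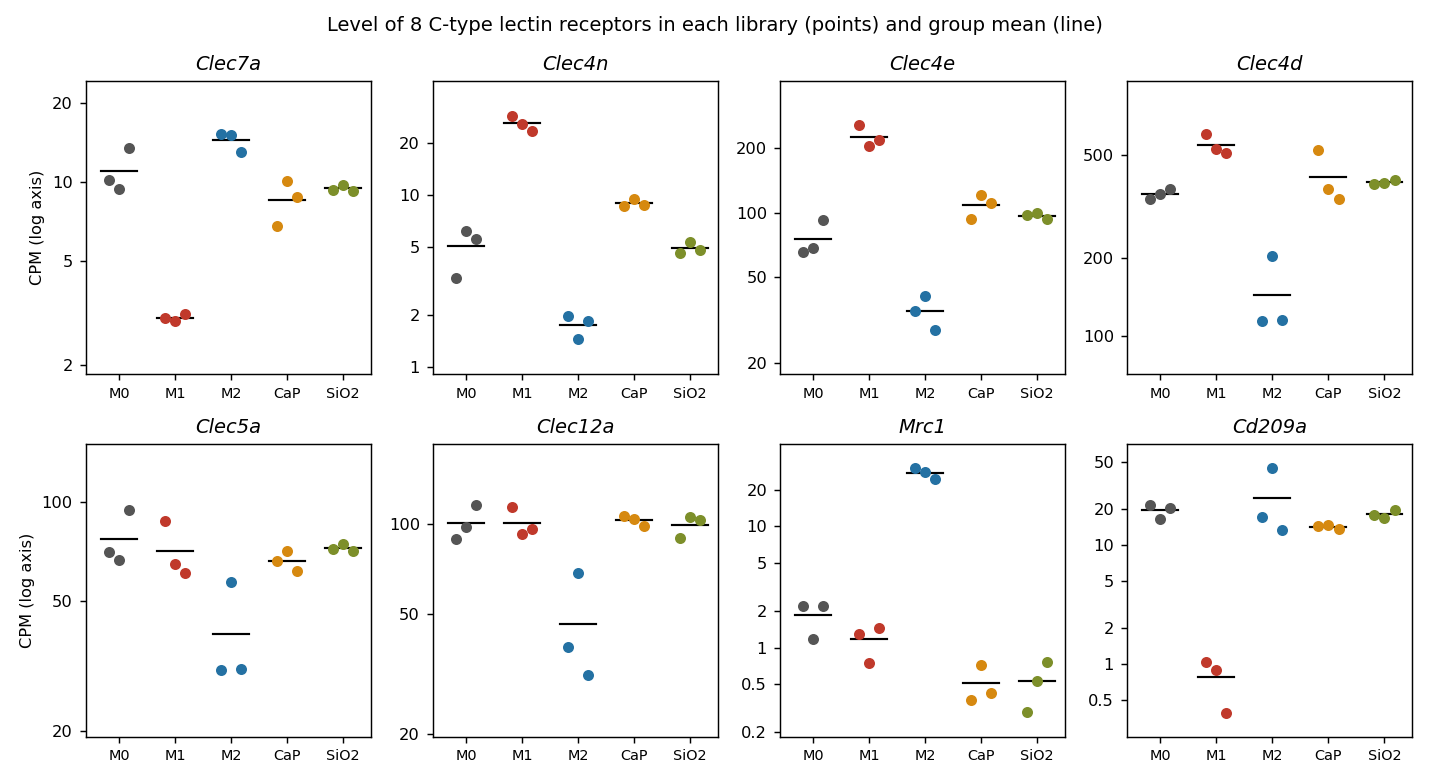
Each panel shows 1 receptor, with its level in CPM on a log axis for the 3 libraries of each group (points) and the group mean (line). Clec4n, Clec4e and Clec4d are highest in M1 and lowest in M2, Mrc1 is highest in M2, and Clec7a and Cd209a are lowest in M1.

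Clec4n, the Dectin-2 receptor for fungal mannans, had the widest range of the sugar sensors that couple to FcRγ. It stood at 3.29, 6.18 and 5.56 CPM in M0 replicates 1 to 3, at 28.8, 25.9 and 23.6 CPM in M1 and at 1.98, 1.45 and 1.85 CPM in M2. All M1 libraries lay above and all M2 libraries below those of M0. The log2 fold change was 2.43 (SE 0.22, adjusted p = 6.13e-06) in M1 and -1.42 (SE 0.25, adjusted p = 0.00524) in M2. M1 exceeded M2 by 3.85 on the log2 scale (SE 0.25, adjusted p = 1.1e-07). The calls in M1 and M2 held when each library of the groups compared was left out in turn.

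Clec4e, the Mincle receptor for mycobacterial glycolipids and for SAP130 of dead cells, moved in the same directions. Its M0 libraries stood at 65.7, 68.2 and 92.7 CPM, those of M1 at 257, 205 and 217 CPM and those of M2 at 35.0, 40.9 and 28.4 CPM. Neither M1 nor M2 overlapped M0. Clec4e rose by 1.59 on the log2 scale in M1 (SE 0.18, adjusted p = 5.34e-05) and fell by 1.12 in M2 (SE 0.18, adjusted p = 0.00302). Both calls held without each library in turn.

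Clec4d, which pairs with Mincle on the cell surface, stood at 339.6, 353 and 372 CPM in M0 and at 605, 530.4 and 509 CPM in M1. The M1 libraries were all above those of M0, yet the log2 fold change of 0.63 (SE 0.22) was not called, with an adjusted p of 0.0711. It was called in a model of only the 6 libraries compared (adjusted p = 0.0346) and without the 3 libraries that stand apart (adjusted p = 0.0344). It was not called with any 1 of the 6 libraries left out (adjusted p from 0.113 to 0.199). DESeq2 (adjusted p = 0.078) and edgeR with a replicate block (0.0965) did not call it either. In M2, Clec4d stood at 114, 204 and 116 CPM, replicate 2 being the high library, and all 3 were below M0. It fell by 1.3 on the log2 scale (SE 0.22, adjusted p = 0.00384), and this call held without each library in turn.

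Clec7a, the Dectin-1 receptor for β-glucans, went the other way in M1. Its level was 10.2, 9.43 and 13.6 CPM in M0 and 3.01, 2.94 and 3.11 CPM in M1, with no overlap. It fell by 1.86 on the log2 scale (SE 0.22, adjusted p = 5.77e-05), from 117 to 386 counts per library in M0 to 32 to 43 counts in M1. In M2 it stood at 15.2, 15.1 and 13.0 CPM, which overlapped M0, and the log2 fold change of 0.39 (95% interval -0.01 to 0.8) was not called. M1 was 2.25 lower than M2 on the log2 scale (-2.25, SE 0.22, adjusted p = 5.92e-06). A long noncoding gene of RefSeq, Gm45969, overlaps Clec7a, and the kit does not mark strand, so reads from the 2 cannot be told apart.

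Clec5a, the MDL-1 receptor that signals through DAP12 and DAP10, was not called in M1 and was lower in M2. The M0 libraries stood at 70.3, 66.5 and 94.4 CPM, replicate 3 (a library that stands apart) being the highest, and those of M1 at 87.6, 64.9 and 60.6 CPM. The log2 fold change in M1 was -0.11, with a 95% interval of -0.62 to 0.39. In M2 it stood at 30.6, 57.1 and 30.9 CPM, where replicate 2 (a library that stands apart) was near M0. The fall of 0.97 on the log2 scale was called (-0.97, SE 0.24, adjusted p = 0.0352), but not without M0 replicate 1 (adjusted p = 0.0705), M0 replicate 3 (0.132), M2 replicate 1 (0.137) or M2 replicate 3 (0.154).

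Clec12a, the inhibitory receptor of the group, known as a sensor of uric acid crystals and dead cells, behaved much like Clec5a. It stood at 88.6, 97.7 and 115 CPM in M0 and at 113, 92.0 and 95.9 CPM in M1, where the log2 fold change was 0.0 (95% interval -0.49 to 0.5). In M2 it stood at 38.9, 68.6 and 31.4 CPM, again with replicate 2 the highest and with no overlap with M0. It fell by 1.13 on the log2 scale (SE 0.23, adjusted p = 0.0144). The call was lost without M0 replicate 3 (adjusted p = 0.0588), M2 replicate 1 (0.0685) or M2 replicate 3 (0.0589).

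In a model of only the 6 M0 and M2 libraries, 1 of the 8 receptors (Mrc1) was called in place of 6. The log2 fold changes of the others were close to those above, from -1.45 for Clec4n to -0.97 for Clec5a, with adjusted p from 0.137 to 0.332. Without the 3 libraries that stand apart, 6 were called. The summed level of the 12 macrophage markers was 1370 to 2100 CPM in M2 against 2560 to 3510 CPM in M0, through Lyz2 at 368 ± 61.3 against 1850 ± 376 CPM (log2 fold change -2.33). The markers did not move as a set, since of the 8 tested 1 was called lower (Lyz2) and 1 higher (Adgre1, 145 to 246 against 42.8 to 75.5 CPM, log2 fold change 1.66, adjusted p = 0.00908), with a median of -0.14. The Adgre1 call was lost without M0 replicate 1 (adjusted p = 0.0585). Their part in the falls of the receptors was not tested.

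Mrc1, the mannose receptor that takes up mannosylated glycoproteins and a common marker of IL-4-treated macrophages, was low in M0 and high in M2. It stood at 2.19, 1.17 and 2.20 CPM in M0 and at 30.0, 28.0 and 24.7 CPM in M2. The rise of 3.88 on the log2 scale (SE 0.29, adjusted p = 3.04e-06), or 14.7-fold, was the largest change of the 8 in M2 and held without each library in turn. In M1 it stood at 1.29, 0.752 and 1.46 CPM, from 11 to 15 counts per library, and the log2 fold change of -0.72 (95% interval -1.52 to 0.08) was not called.

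Cd209a, the mouse DC-SIGN relative that binds mannose and fucose, was far lower in M1. It stood at 21.7, 16.3 and 20.2 CPM in M0 and at 1.03, 0.889 and 0.389 CPM in M1, the latter from 12, 13 and 4 counts. It fell by 4.61 on the log2 scale (SE 0.48, adjusted p = 2.15e-05), or 24.5-fold, the largest change of the 8 in M1. The M2 libraries stood at 17.2, 44.1 and 13.3 CPM and overlapped M0 (log2 fold change 0.31, 95% interval -0.43 to 1.05). Only M2 replicate 2 was above all M0 libraries, and without it the log2 fold change was -0.36 (adjusted p = 0.251). The summed level of the 6 dendritic cell markers was 3.27 to 4.57 CPM in M1 and 1.16 to 1.43 CPM in M0. Of this sum, Ccr7 made up 2.13 ± 0.75 CPM in M1 and 0 CPM in M0. Flt3, Xcr1, Itgae and Siglech were below 1 CPM in every library. Whether the number of cells that express Cd209a changed was not tested.

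**Figure D3:**
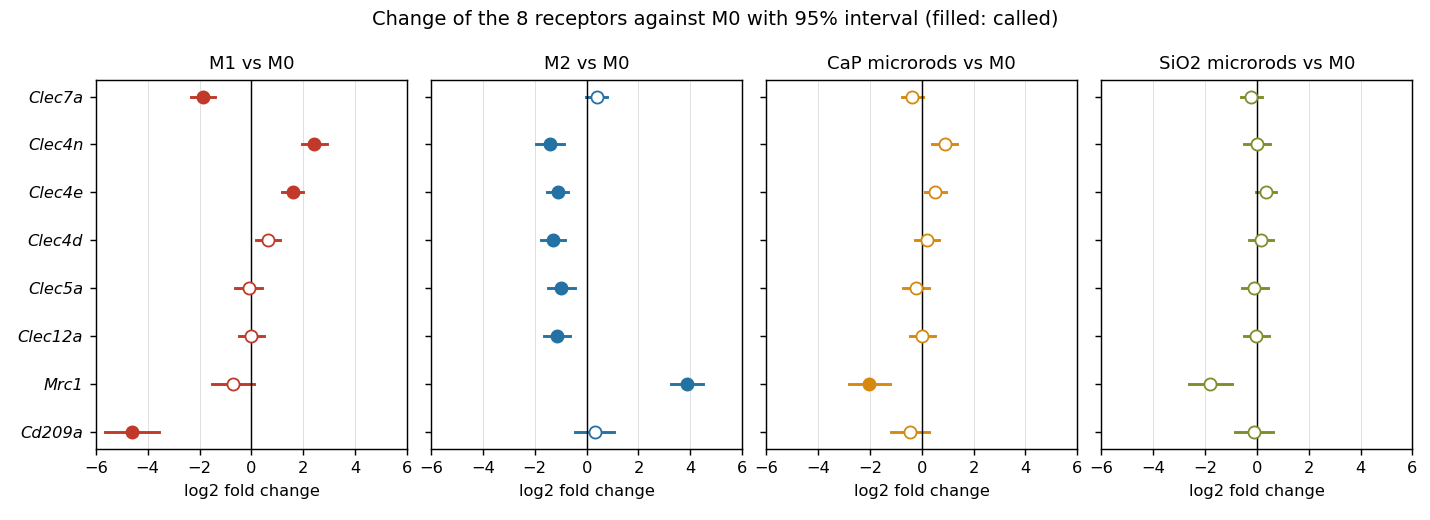
Points give the log2 fold change of each receptor against M0 and lines its 95% interval, 1 panel per comparison, with filled points for called changes. The receptors spread from -4.61 (Cd209a) to 2.43 (Clec4n) in M1 and from -1.42 (Clec4n) to 3.88 (Mrc1) in M2, whereas with microrods Mrc1 alone lies beyond 1 in size.

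In the direct comparison of the polarised groups, the differences were largest for Cd209a, Mrc1 and Clec4n. Cd209a was lower in M1 than in M2 (log2 fold change -4.92, SE 0.48, adjusted p = 8.05e-06), as was Mrc1 (-4.59, SE 0.32, adjusted p = 3.45e-07). Clec4e was higher in M1 (2.71, SE 0.19, adjusted p = 3.36e-07), and so was Clec4d (1.93, SE 0.22, adjusted p = 3.89e-05). Clec12a (1.13, SE 0.24, adjusted p = 0.0044) and Clec5a (0.86, SE 0.24, adjusted p = 0.0245) were also higher in M1. The Clec5a call was lost without M1 replicate 1 (adjusted p = 0.112), M2 replicate 1 (0.101) or M2 replicate 3 (0.113), and both were lost in a model of the 6 libraries alone (0.185 for Clec5a and 0.0956 for Clec12a).

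Under microrods the receptor that differed most from M0 was Mrc1, the only one called by edgeR, and only with CaP. It stood at 0.369, 0.723 and 0.424 CPM with CaP and at 0.294, 0.529 and 0.753 CPM with SiO2 microrods, all below the M0 libraries. These levels rest on 18, 11 and 17 counts with CaP and on 6, 7 and 19 counts with SiO2, against 83, 18 and 19 counts in M0. Mrc1 fell by 2.02 on the log2 scale with CaP (SE 0.36, adjusted p = 0.0231). The call was lost without M0 replicate 1 (adjusted p = 0.25), M0 replicate 3 (0.0853), CaP replicate 1 (0.0604) or CaP replicate 3 (0.156), and without the 3 libraries that stand apart (0.0802). It was also lost in the model of the 9 M0, CaP and SiO2 libraries (0.0714).

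With SiO2 microrods the log2 fold change of Mrc1 was -1.79 (SE 0.39, adjusted p = 0.105), not called by edgeR but called by DESeq2 (adjusted p = 0.004) and by edgeR with no filter on low counts (adjusted p = 0.0208). With any 1 of the 6 libraries left out, edgeR did not call it (adjusted p from 0.0577 to 0.728). Nor did it do so with a replicate block or in the models of only the 6 or 9 libraries. The difference between CaP and SiO2 was -0.24, with a 95% interval of -1.18 to 0.71.

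Clec4n was the receptor in which the microrod types stood farthest apart. It was at 8.59, 9.53 and 8.72 CPM with CaP microrods, above every M0 library, and at 4.60, 5.29 and 4.80 CPM with SiO2 microrods, within the M0 range. The log2 fold change was 0.88 with CaP (SE 0.22, adjusted p = 0.092) and 0.01 with SiO2 (95% interval -0.48 to 0.5), neither called by edgeR. DESeq2 called the former (adjusted p = 0.017), and edgeR did so without M0 replicate 2 (1.1, adjusted p = 0.0498), while without M0 replicate 1 the log2 fold change was 0.57 (adjusted p = 0.437). Between CaP and SiO2 the libraries did not overlap and the log2 fold change was 0.87 (95% interval 0.41 to 1.33), but after adjustment over all genes it was not called (adjusted p = 0.921).

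Clec4e stood at 93.5, 121 and 112 CPM with CaP and at 97.8, 99.2 and 93.6 CPM with SiO2 microrods, all above the M0 libraries. The log2 fold changes of 0.53 (SE 0.18, adjusted p = 0.192) and 0.36 (SE 0.18, adjusted p = 0.653) were not called. Clec4d stood at 525, 369 and 340.3 CPM with CaP, where replicate 1 was the high library, and at 387, 389.6 and 403 CPM with SiO2. Its log2 fold changes were 0.21 and 0.15, and the first was -0.02 without CaP replicate 1.

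Clec7a, Clec5a, Clec12a and Cd209a differed from M0 by at most 0.45 in size on the log2 scale with either microrod, and none was called. Cd209a stood at 14.4, 14.5 and 13.6 CPM with CaP, below all M0 libraries (log2 fold change -0.45, 95% interval -1.19 to 0.28). With SiO2 it stood at 17.7, 16.6 and 19.7 CPM. Clec12a, the crystal sensor, stood at 106, 104 and 98.4 CPM with CaP (log2 fold change 0.03, 95% interval -0.46 to 0.53) and at 89.3, 105 and 103 CPM with SiO2 (-0.02, 95% interval -0.51 to 0.48). Clec7a stood at 6.81, 10.1 and 8.72 CPM with CaP and at 9.35, 9.76 and 9.27 CPM with SiO2, and Clec5a at 66.2, 70.9 and 61.6 CPM and at 71.8, 74.3 and 71.1 CPM.

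The order of the group means was the same for Clec4e and Clec4d, with M2 lowest, then M0, SiO2 and CaP, and M1 highest. For Clec4d the place of CaP rested on replicate 1 (525 CPM, against 369 and 340.3 CPM in the others). Without it the log2 fold change against M0 was -0.02. No difference among M0, SiO2 and CaP was called for either gene. This order and those below carry no test, and the share of all genes whose libraries separate between groups was not computed. Neighbours in that order whose libraries overlapped were SiO2 and CaP for both genes, and CaP and M1 for Clec4d. For Clec4n, SiO2 and M0 overlapped and all other neighbours were separate. For Mrc1 the order was CaP, SiO2, M1, M0 and M2, and only the step from M0 to M2 was without overlap.

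Clec7a and Cd209a shared another order, with M1 lowest, then CaP, SiO2, M0 and M2. The step from M1 to CaP was without overlap for both, and that from CaP to SiO2 for Cd209a only. Clec5a had the order M2, CaP, M1, SiO2 and M0, and Clec12a the order M2, SiO2, M1, M0 and CaP. In both, M2 was separate and the other 4 groups overlapped their neighbours.

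Clec4n, Clec4d and Clec4e lie next to each other at one end of a cluster of 9 Clec4 genes on chromosome 6, in the RefSeq order Clec4a1, Clec4a3, Clec4a4, Clec4b1, Clec4a2, Clec4b2, Clec4n, Clec4d and Clec4e. The genes at the other end encode DCIR and DCAR receptors of dendritic cells and macrophages, near-identical in part, so the split of reads between them is uncertain. In M2 the 3 neighbours were lower (-1.42, -1.3 and -1.12 on the log2 scale), while Clec4a1 rose by 2.3 (SE 0.26), Clec4a3 by 2.36 (SE 0.24) and Clec4b1 by 4.06 (SE 0.37). The corresponding adjusted p-values were 0.000167, 4.24e-05 and 2.67e-06. Clec4a2, the remaining gene tested at that end, was at 0.65 in M2 (SE 0.33), -0.58 in M1 (SE 0.36) and -1.32 with CaP (SE 0.34), none called. In M1, Clec4a1 rose by 2.22 (SE 0.26, adjusted p = 7.11e-05), and Clec4a3 was at 0.38 (SE 0.23, not called). Clec4b1 was at the floor of 3 counts or fewer in every M1 library (2, 1 and 0 counts), at least 2.04-fold lower than in M0, a call lost without M0 replicate 1, M0 replicate 2, M1 replicate 2 or M1 replicate 3 (adjusted p from 0.0643 to 0.139).

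With CaP microrods Clec4a1 and Clec4a3 were called lower, from 4.34 ± 1.28 to 1.4 ± 0.524 CPM (log2 fold change -1.68, SE 0.29, adjusted p = 0.0191) and from 13.1 ± 1.68 to 5.07 ± 0.405 CPM (-1.36, SE 0.24, adjusted p = 0.0191). The Clec4a1 call was lost without M0 replicate 1, M0 replicate 3 or CaP replicate 3 (adjusted p from 0.0848 to 0.109), and that of Clec4a3 without M0 replicate 1, M0 replicate 3, CaP replicate 2 or CaP replicate 3 (from 0.0617 to 0.13). Clec4n, Clec4d and Clec4e had positive log2 fold changes in the same comparison (0.88, 0.21 and 0.53), none called. With SiO2 microrods Clec4a1 was at -1.13 (SE 0.29) and Clec4a3 at -0.94 (SE 0.24), not called.

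**Figure D4:**
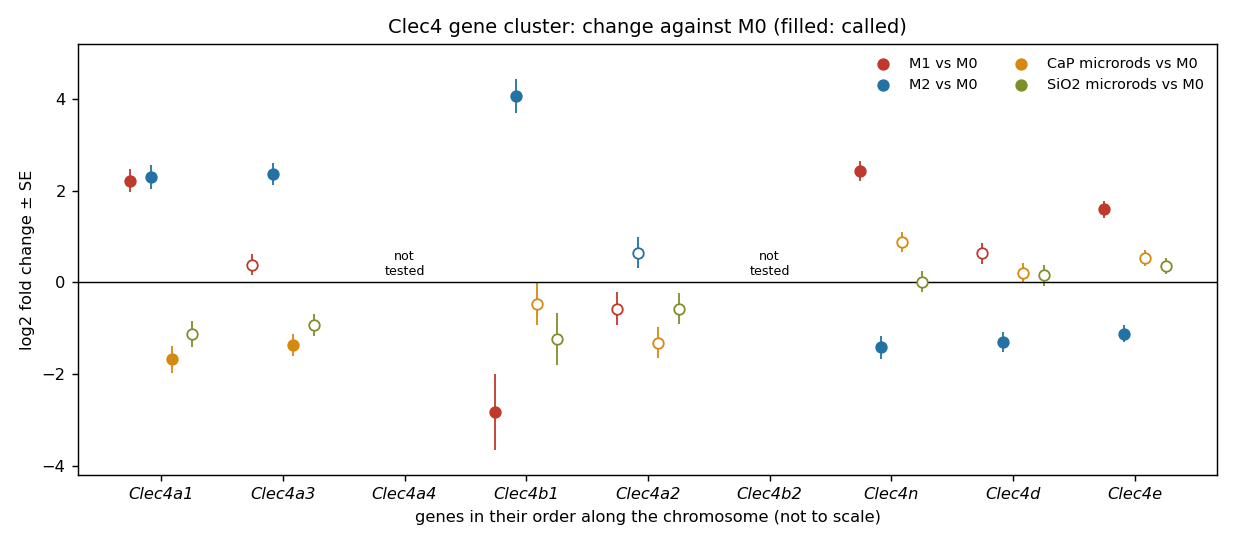
The log2 fold change against M0 with its SE is plotted for the genes of the Clec4 cluster in their order along the chromosome, not to scale, with 1 colour per comparison and filled points for called changes. In M2 (blue) Clec4a1, Clec4a3 and Clec4b1 lie above 2 and Clec4n, Clec4d and Clec4e below -1, and 2 of the 9 genes were too low to be tested.

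Across the 15 libraries the receptors fell into patterns that the gene lists did not set, described by Pearson's r of log2 CPM over libraries that share the same scaling. Clec4n and Clec4e had r = 0.96, Clec5a and Clec12a 0.95, and Clec7a and Cd209a 0.93. Clec4d had r = 0.9 with Clec4e, 0.82 with Clec4n, 0.92 with Clec12a and 0.86 with Clec5a. The pairs with Clec4n and with Clec5a were thus linked through Clec4d. With Clec7a (-0.72), Mrc1 (-0.85) and Cd209a (-0.5) its r was negative. Clec4n and Clec7a ran opposite at r = -0.92. Of all genes tested, those most like Clec4n were the chemokine Ccl3 (r = 0.966), the signalling adaptor Traf1 (0.961) and the acute-phase gene Saa3 (0.96). Those most like Clec4e were Tank (0.983), Stap1 (0.974) and again Ccl3 (0.968), and Clec4d was most like the ubiquitin ligase Nedd4l (0.974), followed by 2 identifiers without a symbol.

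Clec5a was most like Fcrl1 (r = 0.975), then Clec12a (0.952) and an identifier without a symbol, and Clec12a was most like Clec5a, Dpys (0.947) and Rapgef2 (0.942). The genes nearest to Clec7a were Cytip (0.97), 9930111J21Rik1 (0.964) and the leukotriene receptor gene Cysltr1 (0.96). Mrc1 was nearest to cathepsin H (Ctsh, 0.96) and Cbr2 (0.959). Cd209a was nearest to Rgs2 (0.977), Gm6532 (0.974) and the pyrophosphate transporter Ank (0.969). These values describe 15 points in 5 groups and carry no test.

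Of 51 other C-type lectin genes, 15 were expressed enough to be tested. In M1, 2 were called higher and 3 lower, against 9.7% and 4.37% of all genes tested. The median log2 fold change of the 15 was -0.39, and that of all genes -0.01. Clec4a1 and Cd72, a lectin-like co-receptor (log2 fold change 1.23, SE 0.22, adjusted p = 0.00163), were higher. Clec4b1, thrombomodulin (Thbd) and Clec10a were lower. Thbd was at the floor in M1 and at least 3.28-fold lower than in M0, a call that was lost without any 1 of 5 of the 6 libraries (all but M0 replicate 2, adjusted p from 0.065 to 0.126). Clec10a fell from 15.7 ± 1.34 to 10.4 ± 1.18 CPM (-0.59, SE 0.15, adjusted p = 0.0154), and this call was lost without M0 replicate 2, M1 replicate 2 or M1 replicate 3 (adjusted p from 0.05 to 0.0851).

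In M2, 7 of the 15 were called higher and 1 lower, against 2% and 2.13% of all genes tested. Their median was 0.78, and that of all genes 0.07. The galactose-binding lectins Mgl2 and Clec10a stood out beside Mrc1, Mgl2 from 2.26 ± 0.929 to 489 ± 82.7 CPM (7.69, SE 0.34, adjusted p = 1.21e-08) and Clec10a from 15.7 ± 1.34 to 196 ± 15.9 CPM (3.65, SE 0.15, adjusted p = 6.91e-09). Asgr2, a subunit of the asialoglycoprotein receptor, was at the floor in M0 and at least 2.79-fold higher in M2. Its call was lost without M0 replicate 1 (adjusted p = 0.0889) and with DESeq2 (adjusted p = 0.0762). Asgr2 and Clec4b1, also among the 7, had group means of at most 0.595 CPM outside M2. They passed the filter on low counts only through M2, which set their direction, and the count of 7 includes them. Cd93 fell from 51.7 ± 15.5 to 8.07 ± 0.687 CPM (-2.7, SE 0.29, adjusted p = 8.95e-05). Besides Clec4a1 and Clec4a3 with CaP, edgeR called none of the 15 with either microrod. It called 0.654% of all genes with CaP and 0.264% with SiO2. Of the 15, DESeq2 called 4 with CaP and 2 with SiO2, and 4 and 6 had an unadjusted p under 0.05. No share of all genes by these measures was computed, so the shares called by edgeR are no yardstick for them.

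The adaptors that carry the signal of Clec4n, Clec4e, Clec4d and Clec5a were abundant, and edgeR and DESeq2 called 0 of the 3 against M0 in any group, with 1 at an unadjusted p under 0.05 in M1. They are named here after their values were seen. Fcer1g, which encodes FcRγ, stood at 1930 ± 258 CPM in M0, 2600 ± 113 in M1, 1710 ± 457 in M2, 2190 ± 340 with CaP and 2270 ± 152 with SiO2 microrods. It was called only between M1 and M2 (0.6, SE 0.18, adjusted p = 0.0395), and that call was lost without any 1 of 5 of the 6 libraries (all but M2 replicate 2, adjusted p from 0.0739 to 0.161). Tyrobp (DAP12) stood between 637 ± 170 CPM in M1 and 821 ± 58.9 CPM with CaP, and Hcst (DAP10) between 16.9 ± 1.89 CPM in M1 and 23.5 ± 4.26 CPM with CaP.

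Of 27 genes from SYK and CARD9 to NF-kB and NFAT, 26 were tested. In M1, 3 were called higher and 1 lower (median 0.18), and in M2 1 was called higher (median 0.13). Both counts are near the share called among all genes (14.1% and 4.13%), so they are no result about the list. Syk rose from 12.3 ± 2.77 to 25.7 ± 4.24 CPM in M1 (1.09, SE 0.21, adjusted p = 0.00375) and held without each library in turn. Nfkb2 (1.49, SE 0.38, adjusted p = 0.0174) and Rel (0.85, SE 0.23, adjusted p = 0.0226) were higher in M1 and the calcineurin subunit Ppp3ca lower (-0.79, SE 0.2, adjusted p = 0.0157). In M2 it was Prkcd, the kinase between SYK and CARD9, that was higher (1.12, SE 0.27, adjusted p = 0.0314). These 4 calls were less steady. Nfkb2 lost its call without M0 replicate 1 or 3 or M1 replicate 2 or 3 (adjusted p from 0.0596 to 0.0769). Rel and Ppp3ca lost theirs without M0 replicate 1 or M1 replicate 2 or 3 (up to 0.104 and 0.0725), and Prkcd without any 1 of 5 of the 6 libraries (all but M2 replicate 2, up to 0.142).

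With microrods 0 of the 26 were called by edgeR or DESeq2, with 5 (CaP) and 1 (SiO2) at an unadjusted p under 0.05. Of 5 genes of the phosphatases and ubiquitin ligases that act on these receptors, none was called against M0 in any group by edgeR, with 1 at an unadjusted p under 0.05 in M1, 1 with CaP and 0 in the others, and DESeq2 called 1 in M1. Lgals9, listed as a protein ligand of Clec7a, was called higher in M1 (2.52, SE 0.31, adjusted p = 9.38e-05), at 52.0 ± 14.6 against 9.14 ± 2.44 CPM. Vim, also listed as a protein ligand, was not called in M1 (-0.34, SE 0.22).

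The 14 genes known to respond to these receptors are also targets of LPS itself, which the M1 cells received. In M1, 8 of the 12 tested were called higher and 1 lower, against 9.7% and 4.37% of all genes. By the fitted values the first 3 were Csf3 (from 0.0656 ± 0.0659 to 235 ± 52.9 CPM), Il6 (at the floor in M0 and at least 148-fold higher) and Il1b (from 1.07 ± 0.231 to 411 ± 46.9 CPM). The bound for Il6 alone does not give it that place. The median log2 fold change of the 12 was 4.79, or 2.44 with the genes at the floor set to their bound. That of all genes was -0.01. Il6, Il10, Csf2, Csf3 and Ptgs2 had group means of at most 0.605 CPM outside M1. They passed the filter on low counts only through M1, which set their direction. The counts and medians in M1 are thus no measure of the list against all genes. Egr3 was lower in M1 (-1.98, SE 0.32, adjusted p = 0.000973).

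In M2, 3 of the 12 were called lower, where 2.13% of all genes were called lower. They were Egr3 (-2.41, SE 0.31, adjusted p = 0.000445), Nr4a1 (-1.33, SE 0.34, adjusted p = 0.0458) and Tnf (-1.22, SE 0.3, adjusted p = 0.0359). The Nr4a1 call was lost without any 1 of the 6 libraries (adjusted p from 0.0594 to 0.127), and that of Tnf without M0 replicate 2, M0 replicate 3, M2 replicate 2 or M2 replicate 3 (from 0.0569 to 0.113). In M1, Tnf was higher (2.09, SE 0.3, adjusted p = 0.000312). With CaP microrods 1 of the 12 was called, where 0.654% of all genes were called. It was the neutrophil chemokine Cxcl2 at 2.3 ± 0.413 against 0.715 ± 0.239 CPM (1.72, SE 0.36, adjusted p = 0.0427). This call was lost without any 1 of the 6 libraries (adjusted p from 0.0508 to 0.271). DESeq2 called 2 with CaP, and 4 had an unadjusted p under 0.05. These counts too have no share of all genes beside them. Tnf stood at 43.9 to 58.1 CPM with CaP, above the M0 libraries at 19.3 to 35.8 CPM, but was not called (0.97, SE 0.29, adjusted p = 0.141). With SiO2 microrods 0 of the 12 were called by edgeR or DESeq2, with 2 at an unadjusted p under 0.05.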

How the data were processed

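RNA was measured in 15 libraries of MH-S cells. Per the study's methods, the authors made Smart-seq2 libraries, which carry no molecular identifiers or strand, sequenced them as paired-end reads and quantified them through nf-core/rnaseq (STAR and Salmon, Ensembl annotation, GRCm39 per the labels). The deposited counts are whole numbers per Ensembl gene, without normalization, and may be rounded Salmon estimates. 0 columns were left unused.

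Symbols and transcript lengths (median over transcripts) came from GENCODE M21, a GRCm38 annotation and so not the authors' build, which named 51487 identifiers. Genes were filtered with filterByExpr by group, scaled with TMM and tested with edgeR 4.0.16 (quasi-likelihood, all 15 libraries in 1 model, limma 3.58.1, R 4.3.3), with Benjamini-Hochberg adjustment over all genes tested. DESeq2 1.42.0 was an alternative. Standard errors and 95% intervals derive from the quasi-likelihood test. Levels are CPM of the scaled library, given for replicates 1 to 3 in that order or as mean ± SD (n = 3). A group with at most 3 counts in every library is at the floor (0.0429 to 0.395 CPM, counting error only), and folds against it are bounds. An exact permutation test of 3 against 3 cannot give a two-sided p below 0.1, so none was run. The test was tried on simulated data.

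The 8 receptors, the lists and the tests were chosen with earlier results of these data known. Named besides the receptors are list genes called with a microrod or in both M1 and M2, the 3 with the largest change per list and direction in M1 and M2, and the 3 genes most like each receptor, of which 1 is not reported here. Alternatives were DESeq2, its size factors, other filters, a replicate block, other libraries in the model, leaving out each library and, chosen after seeing the data, the legacy quasi-likelihood and leaving out the 3 libraries that stand apart. Promoter sequences are those of RefSeq (GRCm38.p6).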

Additional observations from a re-analysis of the deposited data

How the results depend on the processing

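Of 262 alternative values of the 19 called fold changes, 236 kept the call and 0 changed sign, and 11 of the 19 changes kept it in every alternative run for them. Of 422 alternative values of the 29 changes not called, 6 became calls and 19 changed sign, all between 0.01 and 0.36 in size after the change. The log2 fold changes that changed sign when a library was left out were those of Clec5a in M1 (-0.29 to 0.05), Cd209a in M2 (-0.36 to 0.64), Clec4d (-0.02 to 0.32) and Clec12a (-0.07 to 0.14) with CaP, Clec4n (-0.28 to 0.23), Clec5a (-0.18 to 0.08) and Clec12a (-0.11 to 0.09) with SiO2, and Clec4d (-0.16 to 0.17), Clec12a (-0.02 to 0.1) and Mrc1 (-0.54 to 0.22) between CaP and SiO2. Without the 3 libraries that stand apart the sign changed for Clec5a in M1 (0.04), Cd209a in M2 (-0.34), and Clec5a (0.08) and Clec12a (0.06) with SiO2. For Clec4n with SiO2 it changed under the stricter filter of 10 counts (-0.01) and with the legacy quasi-likelihood (-0.02). Receptors called in M2 went from 6 to 1 in the model of the 6 libraries, and ranged from 4 to 6 when a library was left out. Receptors called with CaP went from 1 to 2 with DESeq2 and to 0 under that filter (which dropped Mrc1 and Cd209a, so these had no value there), in the models of 6 and 9 libraries and without the 3 libraries that stand apart, and ranged from 0 to 2 when a library was left out. With SiO2, DESeq2 and edgeR with no filter each called 1 in place of 0. The replicate numbers did not pair the libraries (correlations of deviations from -0.62 to 0.56 for libraries of the same number, 13 of 30 pairs over 0.1, 4 of 15 libraries closest to their own number), and with the replicate block the calls of Mrc1 with CaP (0 in place of 1 receptor called, adjusted p = 0.0579) and of Clec5a in M2 (5 in place of 6, adjusted p = 0.0614) were lost and no other call changed. Levels moved by less than 1 SD under DESeq2's size factors for all 40 values. The causes of these changes were not tested. Depth limits Mrc1 under microrods (6 to 19 counts per library) and Cd209a in M1 (4 to 13 counts).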
